A study of Drosophila melanogaster with 35 samples.

Results

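The genes described here are 455 genes of Drosophila melanogaster that had no name of their own, only a CG number, and that were spotted on cDNA arrays as clones of an adult testis library. The rule for choosing them reads only the labels of the rows, though it was set with earlier results of these data known. A row was taken if its clone identifier began with AT and digits and if it named exactly 1 gene whose symbol was CG and digits. This gave 457 of the 9006 rows, or 455 genes of 8433 genes and unnamed rows in all. They are called the AT genes below, and the 2363 genes that only carry a CG number and were spotted from any other clone are called the other CG genes. Of the 846 AT rows, 303 named 1 gene with a proper name (274 genes), 25 named several genes and 61 were not in the probe table, and these were not counted among the AT genes.

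The arrays were hybridised with material of Kc167 cells, a cell line of embryonic origin, in 35 hybridisations that fall into 13 groups. In DamID a protein is fused to the bacterial methyltransferase Dam, and DNA near the places that the fusion protein touches becomes methylated and can be isolated. Kc167 cells were transfected with plasmids for Dam-Lam (full-length lamin Dm0 fused to Dam), for Dam-Lam delta CaaX (the same protein without its last 4 amino acids, which carry the CaaX membrane-targeting signal) or for Dam alone, so every DamID value comes from an introduced fusion protein and not from the cells' own lamin. In untreated cells Dam-Lam was compared with Dam on 4 arrays, and Dam-Lam delta CaaX likewise on 4 others. For the histone deacetylase inhibitor trichostatin A (TSA), used at 100 nM for 24 h, there were Dam-Lam, Dam-Lam delta CaaX and Dam, each with TSA over without TSA, and Dam-Lam over Dam and Dam-Lam delta CaaX over Dam, both with TSA (2 arrays each). With the steroid hormone ecdysone (1 µM for 24 h) there were Dam-Lam over Dam with the hormone (3 arrays) and without it (3 arrays), and Dam-Lam and Dam, each with over without ecdysone (2 arrays each). In addition, mRNA of cells with ecdysone was set over mRNA of untreated cells (5 arrays), for which the labels state no dose or time. The level of mRNA in untreated cells was measured against genomic DNA (2 arrays), which corrects for how well each clone hybridises. Separate cultures are nowhere stated for the numbered arrays of a group, so the p-values below measure the spread between arrays, which may be technical.

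The nuclear lamina is a meshwork of lamin proteins under the inner nuclear membrane. A farnesyl group attached at the CaaX signal anchors lamin Dm0 to that membrane. Chromatin that touches the lamina is generally poor in active genes and carries few acetylated histones, and deacetylase inhibitors raise histone acetylation. Many genes that are used only in the Drosophila testis lie near each other along the chromosomes and are silent in other tissues. The files give no function for the AT genes, so they are named only by their numbers.

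Values are log2 ratios of the labelled channel 1 over channel 2, a direction and log base that were assumed, and each array was centred on its median. A positive DamID value therefore means more methylation by the fusion protein than by Dam relative to the median spot of that array, and 1 log2 unit is a 2-fold ratio. A gene with values on 75% or more of a fit's arrays was tested with limma's moderated statistic, and it was called when the p-value, adjusted by Benjamini and Hochberg's method for every unit fitted, was under 0.05. The Lam, Lam delta CaaX and mRNA arrays had values for 8231 to 8485 rows. The TSA and ecdysone arrays had values for the same 7542 rows, 304 of them AT rows. Of 15 hemocyte markers, used since Kc167 cells are known for hemocyte-like traits, 13 were measured and 8 had an mRNA level above 0 on the centred scale. Among them Hml stood at 4.49 and LanB1 at 3.88, whereas NimC1 stood at -2.25 and eater at -0.85. The median mRNA level of 21 ribosomal protein genes, transcribed in every growing cell, was 6.54.

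The AT genes lay above the other CG genes in contact with Lam in untreated cells. Of 436 AT genes tested, 163 (37.4%) had a higher and 24 (5.5%) a lower ratio of Dam-Lam to Dam. Among all 8070 units of the fit, 20.3% were called higher and 14.9% lower. Among 2264 other CG genes, 504 (22.3%) were higher and 313 (13.8%) lower. The median ratio of the AT genes was 0.33 (quartiles -0.08 and 0.81), against 0.03 for the other CG genes, and 308 AT genes (70.6%) had a ratio above 0. At least 2-fold higher were 72 of the AT genes called, and at least 2-fold lower were 3, while 6.41% of all units were called at least 2-fold higher and 1.28% at least 2-fold lower.

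The shift was present on each array. The medians of the AT genes on arrays 2907, 2921, 2945 and 2955 were 0.34, 0.44, 0.21 and 0.39, and those of the other CG genes were 0.04, 0.06, 0.02 and 0.05. The difference of medians was 0.30 ± 0.08 (SD, n = 4 arrays). Between 60.1% and 75.5% of the AT genes lay above 0 on an array, compared with 51.3% to 54.3% of the other CG genes. The number of calls rests on single arrays far more than the medians do. Without array 2921 only 2 AT genes were called higher and 0 lower by limma (at an unadjusted p under 0.05, 140 were higher and 18 lower), and without array 2907 the counts were 37 and 1. Without array 2945 they were 217 and 38, and without array 2955 they were 189 and 66, whereas the difference of medians stayed between 0.29 and 0.34. The counts moved in the whole fit. Of all units, 7 were higher and 4 lower of 7806 without array 2921, and 219 and 28 of 7807 without array 2907. Without array 2945 they were 2078 and 1775 of 8031, and without array 2955 they were 2211 and 2039 of 7841.

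**Figure D1:**
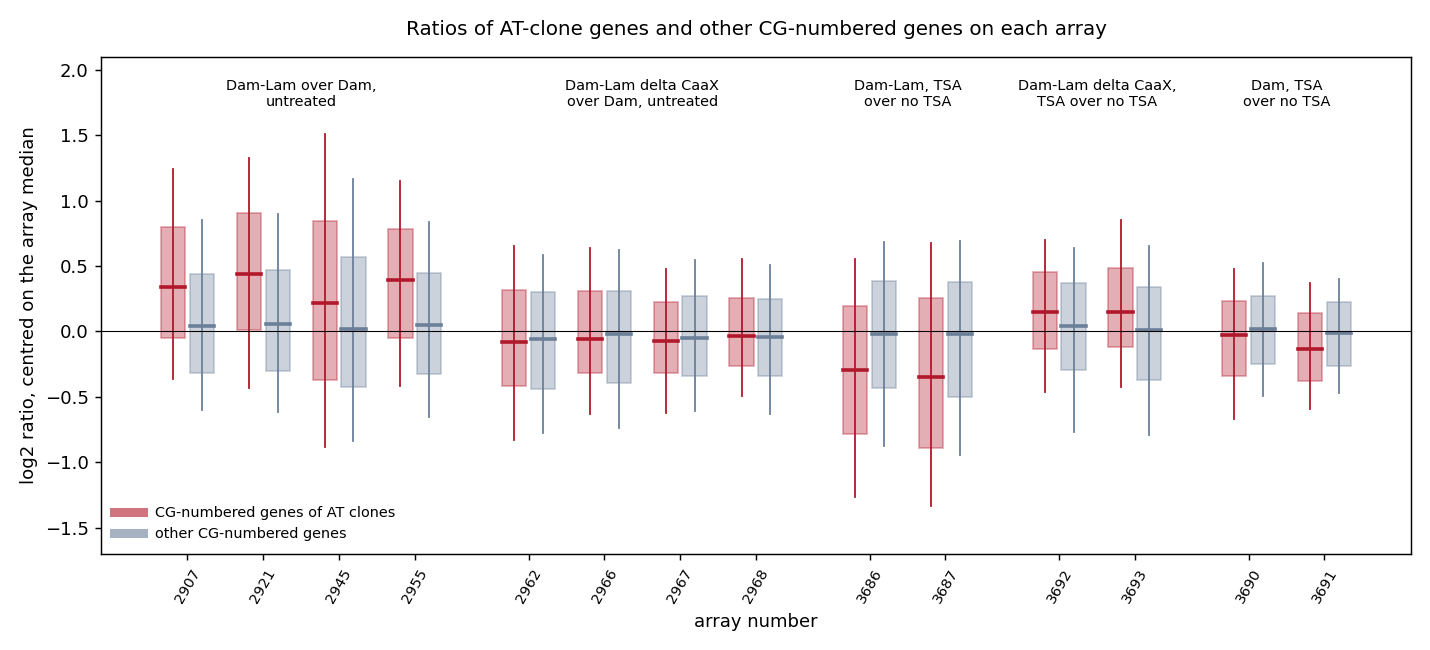
Log2 ratios by array for the AT genes (red, left of each pair) and the other CG genes (grey, right), for both lamin proteins over Dam without treatment and for the TSA changes of Dam-Lam, Dam-Lam delta CaaX and Dam. Boxes span the quartiles, lines are medians and whiskers reach the 10th and 90th percentiles; the AT medians lie above the others on the 4 Lam arrays (0.21 to 0.44 against 0.02 to 0.06) and below them on both arrays of the Dam-Lam change with TSA (-0.29 and -0.35 against -0.02 and -0.02).

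Single AT genes spread from -1.23 to 2.25 in their mean Lam ratio. The highest was CG11227, with 2.11, 2.32, 2.40 and 2.18 on arrays 2907, 2921, 2945 and 2955, a mean of 2.25 ± 0.14 (SE) and an adjusted p of 0.00172 by limma. CG11227 is spotted as 2 AT clones, and both were high on every array, at 2.18, 2.31, 2.34 and 2.08 for AT01046 and at 2.03, 2.32, 2.47 and 2.27 for AT08991. CG13539 had ratios of 1.47, 1.80, 3.22 and 1.95 (2.11 ± 0.22, adjusted p = 0.00265). All arrays of both genes lay far above the upper quartile of the AT genes. CG31740 had no value on array 2945 and 1.48, 1.79 and 2.44 on the other arrays (2.04 ± 0.18). CG15143 had 2.53, 1.83, 1.52 and 1.81 (1.92 ± 0.17), and CG15631 had 3.11 on array 2907 but 1.35 to 1.68 on the others (1.89 ± 0.26). Among these 3 genes, chosen for the same sign on every array, the spread between arrays was widest for CG15631. CG13700 (1.78 ± 0.17), CG13978 (1.71 ± 0.17) and CG2871 (1.68 ± 0.20) completed the 8 highest, with a lowest array value of 1.10.

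A small number of AT genes lay on the other side. CG13771 had -0.57, -1.14, -1.50 and -1.10 (-1.08 ± 0.16, adjusted p = 0.00559). CG5793 had -0.52, -1.02, -1.56 and -1.39 (-1.12 ± 0.15, adjusted p = 0.0043), and CG14174 had -0.81, -0.73, -1.28 and -1.01 (-0.96 ± 0.14). All 4 arrays of these 3 genes were below 0, as the choice of named genes required. The lowest mean belonged to CG8349, whose arrays disagreed in size, at -2.80, -0.62, -1.25 and -0.25 (-1.23 ± 0.35, adjusted p = 0.0363). CG11698 likewise had -2.32 on array 2945 and -0.49 to -0.59 on the other 3 (-0.98 ± 0.27). CG15435 (-0.84 ± 0.17), CG31542 (-0.82 ± 0.14) and CG8526 (-0.80 ± 0.18) were the remaining named genes below 0.

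The shift was also present on arrays of another experiment. In the TSA experiment no array set Dam-Lam against Dam without TSA, but this ratio can be derived. It is the Lam ratio with TSA, minus the Dam-Lam change and plus the Dam change, from arrays 3686 to 3691. None of these are the 4 arrays above. The arrays link the 6 DNA samples in an open chain, so no other array checks the derived ratio, which carries the error of each part. For it 148 of 302 AT genes (49.0%) were called higher and 16 lower, with a median of 0.51 against 0.05 for the other CG genes. Of all units, 20.4% were called higher and 13.6% lower in that contrast. The lower calls among the AT genes were 5 to 9 without array 3686, 3687, 3688 or 3689. All units had 464, 560, 521 and 435 lower calls of 7098 in these fits. Across the AT genes the derived ratio and the ratio of the 4 arrays correlated at r = 0.86, given as a description, since the genes share arrays and clones.

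A lower mRNA level went with being an AT gene. On the arrays of mRNA over genomic DNA the AT genes had medians of -1.16 and -1.59 (arrays 3458 and 3459), and the other CG genes -0.34 and -0.46. Averaged over both arrays, the median was -1.37 (quartiles -1.92 and -0.52) against -0.40. Only 75 of 436 AT genes (17.2%) lay above 0, while 925 of the other CG genes (40.8%) did. Below -2 lay 89 AT genes (20.4%) and 199 other CG genes (8.79%). The 2 arrays give no test between them, and both put the AT genes lower.

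Some AT genes were well transcribed. CG17036 had mRNA levels of 3.82 and 4.04 on the 2 arrays, CG18605 had 3.00 and 3.36, and CG9662 had 2.56 and 2.84. CG14839 (2.25 and 2.44), CG7220 (2.31 and 2.11) and CG13405 (1.79 and 1.55) followed. All 6 lay above 0 on both arrays, and their Lam ratios were -0.16 for CG17036, -0.47 for CG18605, 0.04 for CG9662, -0.48 for CG14839 and 0.41 for CG7220, while CG13405 ranged from -4.10 to 3.02 between Lam arrays. At the low end, CG13870 had mRNA levels of -3.10 and -3.61, CG14662 of -2.90 and -3.23, CG13872 of -3.00 and -3.10 and CG30393 of -2.66 and -3.18. The Lam ratios of these 4 were 0.97, 1.03, 1.34 and 0.67. CG33235 had -3.28 and -2.64 with a Lam ratio of 0.19. CG17110 had -7.33 on one array and -2.35 on the other, so its place among the lowest depends on array 3458.

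Both measures varied with the library of the clone. Named genes of AT clones had a median Lam ratio of 0.15 and 72 of 257 (28%) were called higher, and their median mRNA level was -1.06. CG-numbered genes of larval and pupal clones (LP) had a median Lam ratio of 0.25, with 48 of 140 (34.3%) called higher and a median mRNA level of -1.37. Those of head clones (GH and HL) had 0.19, with 199 of 599 (33.2%) called higher and a median mRNA level of -0.97. The AT, LP and head clones thus had the highest Lam medians among the CG-numbered genes. The order by mRNA was not simply the reverse of that by Lam, since CG-numbered genes of RE clones had a median mRNA level of -0.995, below that of the head clones, with a Lam median of 0.09 and 24.5% called higher. Those of RH clones had an mRNA level of -0.70 with a Lam median of 0.05 (16.9% called higher), and those of SD clones -0.16 with -0.04 (17.3%). At the low end for Lam, CG-numbered genes of ovary clones (GM) had a median Lam ratio of -0.16, with 6 of 101 (5.94%) called higher and a median mRNA level of 1.08. Those of embryo clones (LD) had -0.18, 9.78% and an mRNA level of 0.57. The differences between libraries were not tested.

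**Figure D2:**
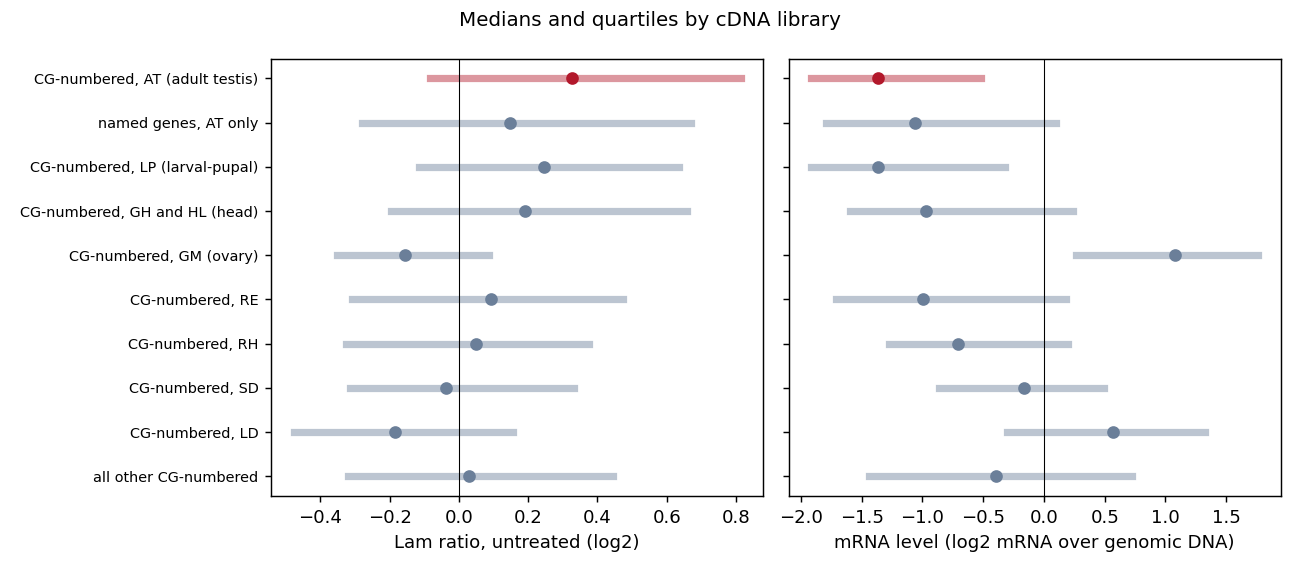
Lam ratio in untreated cells (log2 Dam-Lam over Dam, limma estimate from 4 arrays) and mRNA level (log2 mRNA over genomic DNA, mean of 2 arrays) of genes grouped by the library of their clone; points are medians over genes and bars span the quartiles. The uncharacterised AT genes have the highest Lam median (0.33) and, with LP genes, the lowest mRNA median (-1.37 each), and GM genes the highest mRNA median (1.08).

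Known testis genes were set beside them from a list of 76 symbols, of which 42 were measured. Their median mRNA level was -1.29, with 12 of 41 above 0. Their median Lam ratio was 0.36, with 15 of 41 (36.6%) called higher and 6 lower, against 20.3% and 14.9% of all units. The range among them was wide: wa-cup (2.20), p-cup (1.62), the proteasome subunit paralogue Prosbeta4R2 (1.59) and Tektin-A (1.49), which encodes a structural protein of sperm tails, were high, whereas topi (-0.68) and mia (-0.84), regulators of the spermatocyte programme, and the sperm tail gene Mst84Da (-0.81) were below 0. Of 20 ovary genes 11 were measured, and their median mRNA level was -1.53 with 2 above 0. The ovary genes had a median Lam ratio of 0.31, with 4 of 11 (36.4%) called higher and 0 lower, and the hemocyte genes 0.42, with 6 of 13 (46.2%) called higher and 3 lower. A share called higher above that of all units was therefore not particular to the testis list.

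A comparison within classes of equal mRNA level left part of the Lam difference. The AT and other CG genes together were divided into 10 classes by mRNA level, from lowest to highest. The classes held 83, 65, 63, 61, 39, 42, 33, 25, 16 and 9 AT genes, that is 19% of them in the lowest class and 2.06% in the highest. The median Lam ratio of the AT genes in these classes was 0.65, 0.47, 0.37, 0.31, 0.14, 0.27, 0.01, 0.07, 0.09 and -0.16. That of the other CG genes was 0.50, 0.45, 0.34, 0.33, -0.01, -0.14, -0.16, -0.14, -0.18 and -0.18. Both sets fell with mRNA level, and the AT genes lay higher in 9 of 10 classes. The mean difference over the classes was 0.14, compared with 0.30 without classes. Averaged over classes on each array it was 0.15 ± 0.12 (SD, n = 4), and on array 2945 it was -0.04, so this smaller difference was absent from 1 of the 4 arrays.

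The difference over the 4 untreated arrays was not even along the scale. In the 4 lowest classes, which held 272 AT genes (62.4%) and 809 other CG genes (35.7%), the median Lam ratios were 0.46 and 0.40, and 46.7% of the AT genes against 43.4% of the other CG genes were called higher. In the 6 upper classes, with 164 AT genes, the medians were 0.13 and -0.14. There 36 AT genes (22%) were called higher, against 10.5% of the other CG genes, and 16 (9.76%) were called lower, against 19.1%. On arrays 2907, 2921, 2945 and 2955 the medians in the upper classes were 0.14, 0.18, -0.07 and 0.10 for the AT genes and -0.12, -0.12, -0.18 and -0.11 for the other CG genes. With the 6 upper classes pooled, the AT genes thus lay higher on all 4 arrays. Pooling does not hold the mRNA level equal. From class 5 to class 10 the AT genes fell from 39 to 9, and the other CG genes rose from 231 to 261. Pooled medians and shares can therefore carry part of the mRNA difference. Within class 5 the AT genes lay lower on array 2945 (-0.02). Within class 10 they lay lower on arrays 2945 (-0.38) and 2921 (-0.04). In classes 6 to 9 they lay higher on all 4 arrays. In the 4 lowest classes the medians on these arrays were 0.48, 0.62, 0.36 and 0.48 for the AT genes and 0.39, 0.40, 0.42 and 0.35 for the other CG genes, so the AT genes lay higher on 3 arrays and lower on array 2945. The Lam ratio derived without TSA in the TSA experiment put the AT genes higher in 10 of 10 classes, with a mean difference of 0.23. In its 4 lowest classes the medians were 0.88, 0.62, 0.55 and 0.60 for the AT genes and 0.59, 0.42, 0.42 and 0.34 for the other CG genes. On the untreated arrays the sets lay close in classes 2 to 4 (differences of -0.02 to 0.04). In the lowest class the AT genes lay 0.15 higher, with differences of 0.12 to 0.25 on single arrays. The derived ratio put the AT genes higher by 0.29 in the lowest class and by 0.19, 0.13 and 0.26 in classes 2 to 4. The derived medians rest on fewer AT genes, 55, 44, 39 and 46 in the 4 lowest classes in place of 83, 65, 63 and 61. Arrays and genes both differ here, and their parts cannot be told apart. The division into lower and upper classes was chosen after the class values were seen.

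**Figure D3:**
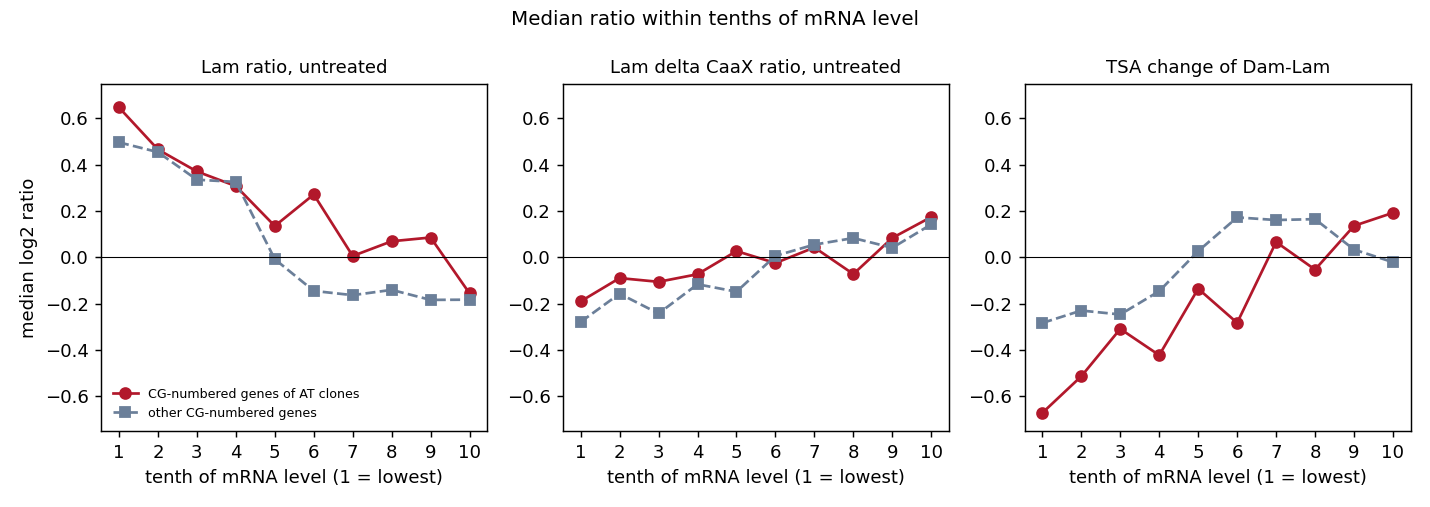
Medians of the AT genes (red) and the other CG genes (grey) in 10 classes of mRNA level, from lowest (1) to highest (10), for the Lam ratio, the Lam delta CaaX ratio and the change of Dam-Lam with TSA (all log2). For Lam the sets lie close in classes 2 to 4 (differences of -0.02 to 0.04) and farther apart in class 6 (0.42); classes 9 and 10 hold only 16 and 9 AT genes.

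Across the 436 AT genes the Lam ratio and the mRNA level correlated at r = -0.29, and across the other CG genes at r = -0.38, both as descriptions over genes. Of the AT genes in the 3 highest classes of mRNA level, 9 of 50 (18%) were called higher for Lam, against 7.89% of the other CG genes there. They included CG10950 (mRNA level 1.09, Lam ratio 1.63), CG17258 (0.76 and 1.15) and CG14861 (0.78 and 1.04). CG12446 (1.11 and 0.94), CG5111 (1.54 and 0.65) and CG15873 (1.35 and 0.48) belonged to the same set, so a high mRNA level and a high Lam ratio occurred in the same gene. The reverse also occurred. In the 3 lowest classes 6 AT genes were called lower for Lam: CG14834 (mRNA level -2.60, Lam ratio -0.58), CG12229 (-1.98 and -0.61), CG14391 (-1.76 and -0.47), CG8349 (-1.64 and -1.23), CG13771 (-1.46 and -1.08) and CG17118 (-1.42 and -0.66). From the lowest class upward they made up 1.2%, 3.08% and 4.76% of the AT genes. Of the other CG genes 2.66%, 2.93% and 5.31% were called lower there, so such genes were not particular to the AT genes.

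With Lam delta CaaX, the form without the membrane-targeting signal, the medians of the AT genes and the other CG genes lay close together on the 4 untreated arrays. The ratio derived without TSA in the TSA experiment differed from this, with a median of -0.24 for the AT genes and 0.01 for the other CG genes, as described with the TSA results. On the untreated arrays 53 of 435 AT genes (12.2%) were called higher and 59 (13.6%) lower, while 16.1% of all units were higher and 16.3% lower. The other CG genes had 13.5% higher and 19.9% lower. The medians of the AT genes on the 4 arrays were -0.08, -0.06, -0.07 and -0.03, and those of the other CG genes -0.06, -0.02, -0.05 and -0.04. The difference of medians was -0.019 ± 0.018 (SD, n = 4), about the size of its spread. Within classes of mRNA level it averaged 0.04, above 0 on each array (0.01 to 0.06), with the AT genes higher in 7 of 10 classes. In the 3 lowest classes 16.2%, 11.3% and 12.1% of the AT genes were called lower, against 37.2%, 30.7% and 30.3% of the other CG genes. The AT share was the larger in class 6 (17.1% against 12.8%) and class 8 (12.5% against 9.87%). The counts depended on the arrays used, with 27 higher and 18 lower without array 2967, 21 and 20 without array 2968, and 95 lower without array 2966. Among all units they were 478 and 611 of 8030, 473 and 546 of 8036, and 1688 lower of 8045.

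Individual AT genes still stood out with Lam delta CaaX. CG11226 had 1.22, 1.24, 0.96 and 1.03 on arrays 2962, 2966, 2967 and 2968 (1.11 ± 0.12, adjusted p = 0.00079 by limma), and CG7514 had 1.87, 0.95, 0.74 and 0.87 (1.11 ± 0.16). CG8292 (1.02 ± 0.14), CG7707 (1.00 ± 0.24) and CG9254 (0.89 ± 0.19) followed, each above 0 on all 4 arrays as the choice required, then CG13088, CG15760 (0.82 ± 0.14) and CG16781 (0.82 ± 0.13). On the low side CG46298 had -2.31, -0.86, -1.65 and -1.39 (-1.55 ± 0.21, adjusted p = 0.00239), and CG15865 had -1.004, -1.18, -0.93 and -1.20 (-1.08 ± 0.12). CG13337 had -1.79, -0.75, -1.16 and -1.03 (-1.18 ± 0.17) but a Lam ratio of 0.72, and CG11584 had -0.83 ± 0.15 with a Lam ratio of 0.61. CG31542 was low with both proteins, at -0.92 ± 0.12 with Lam delta CaaX. CG13203 (-0.91 ± 0.18), CG13186 (-0.85 ± 0.17) and CG5623 (-0.81 ± 0.12) were the other named genes. Over all AT genes the 2 ratios correlated at r = -0.19.

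The difference between both proteins was tested in 1 model of the 8 untreated arrays. The ratio of Lam exceeded that of Lam delta CaaX in 160 of 416 AT genes (38.5%) and was below it in 32 (7.69%), against 24.1% and 11.4% of 2168 other CG genes. Over all units 21.1% were higher and 14.1% lower. The median difference was 0.37 for the AT genes and 0.03 for the other CG genes. Both proteins were never hybridised on 1 array, so a difference between them cannot be told apart from one between their sets of arrays. The count of lower AT genes was 21 without array 2921, 18 without array 2967 and 17 without array 2968. Of all units 631 of 7704, 661 of 7704 and 648 of 7705 were then lower. The largest differences were those of CG11227 (2.61 ± 0.22, adjusted p = 0.000102), CG15631 (2.40 ± 0.34), CG13539 (2.28 ± 0.27), CG31740 (2.25 ± 0.22) and CG13700 (2.15 ± 0.37), which all had high Lam ratios. CG31933 (2.07 ± 0.29), CG15767 (2.04 ± 0.21) and CG2871 (2.01 ± 0.30) followed. In the other direction CG4935 (-1.26 ± 0.20, adjusted p = 0.00102), CG7707 (-1.14 ± 0.37) and CG11885 (-1.14 ± 0.23) led, ahead of CG14174 (-1.04 ± 0.20), CG14763 (-1.04 ± 0.31), CG14391 (-1.02 ± 0.27), CG9643 (-0.98 ± 0.19) and CG43999 (-0.96 ± 0.22).

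The effect of TSA could be read for only part of the AT genes. A value on the TSA arrays was present for 302 of 455 AT genes (66.4%), compared with 2047 of 2363 other CG genes (86.6%). The AT genes with TSA values had a median Lam ratio of 0.37 and a median mRNA level of -1.31, and those without had 0.25 and -1.45. Their shares called higher for Lam were 37.9% (114 of 301) and 36.3% (49 of 135). The shares called were thus close, and the Lam median was lower among the genes without TSA values.

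With TSA the methylation by Dam-Lam was lower at the AT genes. Of 302 genes 159 (52.6%) were called lower and 66 (21.9%) higher, while 33.6% of all units were lower and 31.9% higher. The other CG genes had 35.2% lower and 31.5% higher. Among named genes of AT clones 44.7% were lower. Among CG-numbered genes of RH, LP, RE and head clones 47.7%, 46.7%, 43.4% and 39.6% were lower, and of GM, SD and LD clones 30.5%, 26.3% and 19.5%. A share above that of all units was thus not particular to the AT genes, though theirs was the highest of these. The median change of the AT genes was -0.29 and -0.35 on arrays 3686 and 3687, and -0.02 on each for the other CG genes. The 2 arrays of exchanged dyes correlated at r = 0.959 over the 304 AT rows. At least 2-fold lower were 55 AT genes called, and at least 2-fold higher were 8, against 6.97% and 1.89% of all units.

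Methylation by Dam alone also moved downward at the AT genes, by less. Of the same genes 80 (26.5%) were lower with Dam and 42 higher, against 16% lower and 15.6% higher of all units, and the medians on arrays 3690 and 3691 were -0.03 and -0.14 for the AT genes and 0.02 and -0.01 for the other CG genes. The change of Dam-Lam minus that of Dam was lower in 99 AT genes (32.8%) and higher in 27, and its median was -0.21 against -0.05 for the other CG genes, of which 18.8% were lower. Of all units 17.6% were lower and 12.4% higher. The calls were lost when all arrays were scaled to the same spread. Then 0 AT genes were called by limma (at an unadjusted p under 0.05, 13 were higher and 50 lower), as were 0 of all units, and the difference of medians was -0.05 in place of -0.16. Leaving out array 3686 or 3687 reduced the lower calls to 59 or 53 and the higher calls to 8. All units then had 497 or 644 lower and 219 or 361 higher calls of 7098. Without array 3690 the higher calls of the AT genes were 14, and their calls for Dam were 17 higher and 44 lower. All units had 531 higher calls there, and 353 higher and 547 lower calls for Dam.

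Dam-Lam delta CaaX moved the other way. With TSA 116 AT genes (38.4%) were called higher and 45 (14.9%) lower, against 27.8% and 29.2% of all units, and the medians were 0.15 and 0.15 on arrays 3692 and 3693 for the AT genes and 0.04 and 0.01 for the other CG genes. Named genes of AT clones were much alike, with 36.7% higher, 15.4% lower and a median of 0.16 against 0.13 for the AT genes. Of the CG-numbered genes of RE, LP and head clones 32.4%, 31.9% and 31.8% were higher, and of GM clones 17.9%. Relative to Dam, 105 AT genes (34.8%) were higher and 20 lower, with a median of 0.27 against 0.02, and of all units 16.2% were higher and 20.4% lower. With arrays scaled to the same spread 42 AT genes were higher and 6 lower (285 and 450 of 7098 units). Without array 3692 or 3693 the higher calls were 55 or 40 (502 or 400 of all units). For the change of this protein without subtraction of Dam, the lower calls were 24 and 28 without those arrays (1386 and 1398 of all units). The higher calls were 71 without array 3693 (1062 of all units).

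The changes of both lamin proteins were called different from each other at most of the 302 AT genes tested. They were measured on separate arrays, 3686 and 3687 for Dam-Lam and 3692 and 3693 for Dam-Lam delta CaaX. A difference between the proteins therefore cannot be told apart from one between these arrays. The change of Dam-Lam minus that of Dam-Lam delta CaaX was below 0 in 169 AT genes called (56.0%) and above 0 in 19, compared with 19.1% and 18.9% of all units, and its median was -0.53 against 0.03 for the other CG genes. It was called below 0 in 42.6% of the named genes of AT clones, and in 37.8% of LP, 33.5% of RE and 5.26% of GM genes. Scaling the arrays to the same spread left 20 lower and 0 higher calls by limma (149 and 13 at an unadjusted p under 0.05), and the difference of medians was -0.37. Of 7098 units 95 were then lower and 3 higher. Without array 3686 the lower calls of the AT genes were 112 (725 of all units), and without array 3693 they were 101 (688 of all units). The higher calls were 2 to 8 without array 3686, 3687, 3692 or 3693 (277, 466, 277 and 280 of all units).

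After TSA the AT genes still lay above the other CG genes in the Lam ratio. On the arrays of Dam-Lam over Dam in treated cells (3688 and 3689) the medians were 0.33 and 0.25 for the AT genes and 0.04 and 0.02 for the other CG genes. In these cells 149 AT genes (49.3%) were called higher and 14 lower, against 19.5% and 14.6% of all units, with a median of 0.29 in place of 0.51 without TSA. The value without TSA was derived from the ratio with TSA, minus the Dam-Lam change and plus the Dam change. The step from 0.51 to 0.29 therefore restates the change of Dam-Lam minus that of Dam, whose calls were lost with scaled arrays. It is no second observation, and Lam delta CaaX without TSA was derived in the same way. Without array 3688 or 3689 the higher calls were 31 or 53 and the lower calls 3. All units then had 247 or 361 higher and 79 or 160 lower calls of 7098. The Lam delta CaaX ratio was called higher in 26 AT genes and lower in 14 with TSA (5.3% and 7.2% of all units), with a median of 0.01. Derived for cells without TSA, it was higher in 4 and lower in 49 AT genes (16.2%), with a median of -0.24, and 7.03% of all units were higher and 5.18% lower. Those lower calls fell to between 0 and 2 without array 3692, 3693 or 3695, to 30 to 32 without array 3688, 3689 or 3690, and to 17 with scaled arrays, while the higher calls ran from 0 to 16 over the arrays left out. Of all 7098 units 34, 19 and 29 were lower without array 3692, 3693 or 3695. Without array 3688, 3689 or 3690 they were 227, 227 and 281, and with scaled arrays 116. However, the difference of medians stayed between -0.30 and -0.23 when single arrays were left out.

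The largest single changes show these patterns gene by gene. CG11227, the gene with the highest Lam ratio, changed by -2.10 and -1.89 with Dam-Lam, by -0.25 and -0.16 with Dam-Lam delta CaaX and by -0.95 and -0.51 with Dam (Dam-Lam change -1.99 ± 0.12, adjusted p = 1.04e-07 by limma). CG12446 changed by -2.00 and -1.78, -0.85 and -0.75, and -0.59 and -0.46 with the same 3 proteins. In both genes the Dam-Lam change was the largest on either array. CG11634 (-2.19 and -1.85 with Dam-Lam, -1.49 and -1.28 with Dam-Lam delta CaaX) and CG7220 (-2.00 and -1.87, then -2.01 and -1.91) fell with both lamin proteins. CG11106 changed by -1.94 ± 0.15 with Dam-Lam. CG14339 was higher with both lamin proteins, by 1.53 and 1.71 and by 1.72 and 1.98, and less so with Dam, by 0.26 and 0.49. CG14834 was higher with all 3 proteins, at 1.52 and 1.65, 1.60 and 1.56, and 1.34 and 0.87. CG13771, which had a low Lam ratio, had a Dam-Lam change of 1.41 and 1.28. CG10516 (1.26 ± 0.14) and CG7164 (1.19 ± 0.10) also rose with Dam-Lam.

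Relative to Dam, the most negative Dam-Lam changes belonged to CG15450 (-1.60 ± 0.14, adjusted p = 0.000244), CG7329 (-1.49 ± 0.13), CG13700 (-1.48 ± 0.25), CG12446 (-1.36 ± 0.14) and CG16898 (-1.32 ± 0.21). The most positive belonged to CG14339 (1.24 ± 0.13), CG31459 (1.04 ± 0.18), CG30161 (0.92 ± 0.17), CG13771 (0.86 ± 0.14) and CG9147 (0.81 ± 0.13). These calls too were absent with scaled arrays. For Dam-Lam delta CaaX relative to Dam, CG14339 (1.47 ± 0.13), CG42233 (1.23 ± 0.21), CG3062 (1.17 ± 0.20), CG2889 (1.17 ± 0.16) and CG3222 (1.07 ± 0.14) were highest. CG7220 (-1.26 ± 0.23), CG11226 (-1.04 ± 0.15), CG32407 (-1.001 ± 0.15), CG9643 (-0.92 ± 0.17) and CG14864 (-0.87 ± 0.21) were lowest, and CG11226 was also the gene with the highest Lam delta CaaX ratio before treatment. With Dam alone CG5250 (1.35 ± 0.15), CG14834 (1.11 ± 0.11) and CG3568 (0.91 ± 0.15) rose most, and CG8097 (-1.02 ± 0.10), CG31740 (-0.98 ± 0.14) and CG1428 (-0.98 ± 0.14) fell most. Dam-Lam delta CaaX without that subtraction was highest, after CG14339 and CG14834, in CG15530, CG5653 and CG11698 (1.34, 1.32 and 1.25) and lowest in CG7220, CG8097 and CG31717 (-1.96, -1.88 and -1.47).

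The Dam-Lam change with TSA was ordered by the Lam ratio before treatment. Of 114 AT genes called higher for Lam on the untreated arrays and measured with TSA, 103 were called lower and 1 higher with TSA, with a median change of -0.86. Of 173 called neither way, 54 were lower and 56 higher (median 0.04), and of 14 called lower for Lam, 2 were lower and 8 higher (median 0.50). The genes called higher for Lam also had a median change of -0.25 with Dam alone and of -0.59 after subtraction of Dam, and of 0.04 with Dam-Lam delta CaaX. Their median Lam ratio was 1.05 without TSA, as derived in that experiment, and 0.48 with TSA. Since the derived ratio is built from the ratio with TSA and the changes of Dam-Lam and Dam, this fall restates the change after subtraction of Dam. Among the other CG genes called higher for Lam, 334 of 450 were lower and 15 higher with TSA (median -0.62). Across 301 AT genes the 2 values correlated at r = -0.73, and across the other CG genes at r = -0.62. These are descriptions over genes, and the 2 values come from different arrays.

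**Figure D4:**
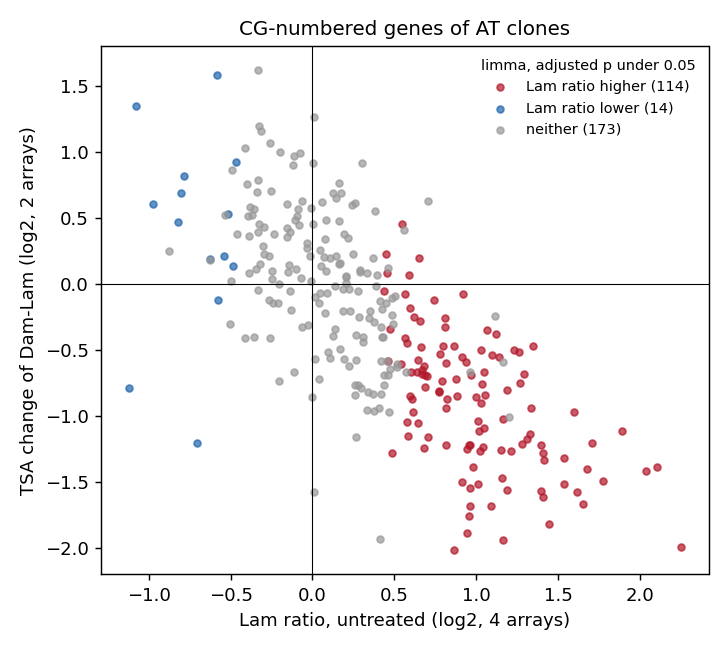
Change of Dam-Lam methylation with TSA (log2 TSA over no TSA, mean of 2 arrays) against the Lam ratio in untreated cells (log2 Dam-Lam over Dam, limma estimate from 4 other arrays) for 301 AT genes, coloured by the Lam call (114 higher, 14 lower, 173 neither). Genes called higher for Lam lie mostly below 0 on the vertical axis (103 of 114 called lower), and the cloud slopes downward (r = -0.73).

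Within classes of mRNA level the Dam-Lam change of the AT genes was -0.67, -0.51, -0.31, -0.42, -0.13, -0.28, 0.07, -0.05, 0.14 and 0.19 in the median, from the lowest to the highest class. For the other CG genes it was -0.28, -0.23, -0.25, -0.15, 0.03, 0.17, 0.16, 0.17, 0.03 and -0.02. The AT genes were lower in 8 of 10 classes, with a mean difference of -0.16. The classes of lowest mRNA thus had the most negative change in both sets. Not every AT gene with high Lam and high mRNA behaved alike, since CG12446 (-1.89), CG15873 (-1.29), CG17258 (-1.26) and CG14861 (-1.23) had low values with TSA while CG5111 had 0.19 (adjusted p = 0.0957).

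The AT genes were found on all major chromosome arms. The Release 6 annotation placed 445 of them, 66 (14.8%) on X, 108 (24.3%) on 2L, 84 (18.9%) on 2R, 78 (17.5%) on 3L and 109 (24.5%) on 3R, and none on chromosome 4. Of all genes placed, the same arms held 15.8%, 18.8%, 20.7%, 19.3% and 24.8%. The median Lam ratio of the AT genes was 0.27, 0.39, 0.40, 0.31 and 0.27 on these arms, and that of the other CG genes 0.02, 0.02, 0.00, 0.13 and -0.04, so the AT genes were higher on each arm. The difference of medians was 0.25 on X and 0.31 on the autosomes. Their Dam-Lam change with TSA was -0.14, -0.42, -0.57, -0.09 and -0.18 in the median. For Lam delta CaaX the difference of medians was 0.06 on X alone, opposite in sign to that of all arms.

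Genes next to AT genes had higher Lam ratios than genes farther away. The order was that of the 7128 measured genes along the arms, with unmeasured genes skipped. Genes that were not AT genes had a median Lam ratio of 0.21 directly next to an AT gene (226 of 721 called higher, 31.3%), 0.07 next but 1 (25.4%), -0.06 at 3 to 5 places (16.5%) and -0.10 at 6 places or more (16.5%). Next to an AT gene that was itself called higher the median was 0.51, with 124 of 251 (49.4%) called higher. Next to one called neither way it was 0.11 (24.7%), and next to one called lower it was -0.25, with 3 of 41 called higher and 8 lower. The median mRNA levels of these 3 sets of neighbours were -0.94, -0.26 and 0.40. Neighbours thus resembled the AT gene beside them in Lam ratio, and their mRNA level ran the opposite way. The part of the mRNA level in this pattern was not tested.

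**Figure D5:**
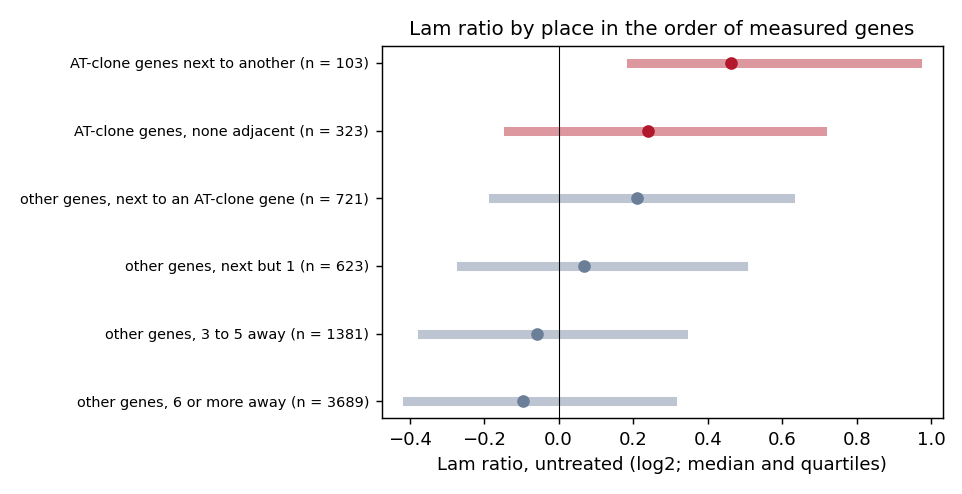
Lam ratio in untreated cells (log2 Dam-Lam over Dam) of AT genes and of genes at increasing distance from them, counted in measured genes along a chromosome arm; points are medians and bars span the quartiles over genes. AT genes beside another AT gene stand at 0.46, genes directly beside an AT gene at 0.21, and genes at least 6 places away at -0.10.

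AT genes also lay beside each other, in 41 runs of 2 and 8 runs of 3. The 106 AT genes with an AT neighbour had a median Lam ratio of 0.46, with 48 of 103 (46.6%) called higher and 3 lower, and the 339 without one had 0.24, with 110 of 323 (34.1%) called higher. The run on 2L of CG16852 (0.74), CG16853 (0.78) and CG9254 (0.88) was called higher throughout, and it was high with Lam delta CaaX as well, at 0.69, 0.78 and 0.89. On 2R CG13544 (1.26) and CG13539 (2.11) stood beside CG30192, which had no Lam value. Runs on 3R were CG1137 (1.12), CG2336 (1.00) and CG15177 (0.33), then CG14609 (0.46), CG1288 (0.38) and CG14605 (0.96). In the run of CG14840 (-0.24), CG14841 and CG14839 (-0.48), CG14841 had no Lam value and the other two were below 0. The remaining runs on 3R were CG14689 (0.19), CG4073 (0.46) and CG14691 (0.24), and CG4960 (0.20), CG31093 (0.45) and CG5024 (0.30). On X the run of CG2889 (-0.79), CG2887 (-0.25) and CG15296 (0.40) was mixed. Runs were thus mostly, and not always, of 1 sign.

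The spread between clones of a gene could be judged in few cases. Besides CG11227, CG10026 had 2 AT clones, with Lam ratios of 0.54, -0.01, 0.04 and 0.32 for AT02541 and 0.20, -0.04, 0.23 and 0.12 for AT17811. Of 12 genes spotted both as an AT clone and as another clone, 8 had a Lam ratio from both. The absolute difference between clones was 0.26 in the median and 0.95 at most, for CG5612 (AT clone 0.26, other clone 1.20).

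Ecdysone changed the mRNA of few AT genes. Of 302 genes 0 were called higher and 2 lower by limma (12 and 11 at an unadjusted p under 0.05), while 2.13% of all units were higher and 1.59% lower. CG6184 changed by -0.68, -0.57, -0.76, -1.14 and -1.15 on the 5 arrays (-0.87 ± 0.15, adjusted p = 0.0109), and CG3788 by -0.82, -0.52, -1.03, -0.68 and -0.68 (-0.74 ± 0.14, adjusted p = 0.0158). Both genes were below 0 on every array, which was required of named genes. These calls rest on the arrays used, since the lower calls were 0 without array 3450, 3451 or 3452, 1 without array 3426 and 9 without array 3427, and the higher calls were 5 without array 3427 and 4 without array 3452. In the same order, 38, 29, 59, 29 and 459 of all 7098 units were lower, and 354 and 99 higher. The medians of the AT genes on the 5 arrays were 0.11, 0.01, 0.11, 0.21 and -0.06, and over the AT rows array 3452 correlated at r = -0.34 with array 3450 and at r = -0.43 with array 3451, though over all rows it did so at 0.35 and 0.32. Over the AT rows these arrays thus ran in opposite directions, although over all rows they did not. Array 3452 had its dyes exchanged relative to arrays 3450 and 3451, which correlated with each other at r = 0.78 over the AT rows. With array 3426, of its own dye orientation, it correlated at r = 0.04 over these rows, and a part of the dyes was not tested.

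For the hormone experiment, the arrays that set Dam-Lam against Dam have no settled direction. Arrays of the same group and dye orientation correlated at r = -0.64 with ecdysone (3428 and 3436) and at r = -0.56 without it (3434 and 3441). As deposited, the medians of the AT genes were -0.32, 0.51 and 0.20 with ecdysone (arrays 3428, 3436 and 3442) and 0.16, -0.50 and -0.53 without it (arrays 3434, 3441 and 3443), and with the sign turned they were 0.32, -0.51 and -0.20, and -0.16, 0.50 and 0.53. The other CG genes stayed between -0.03 and 0.07 as deposited. On each of the 6 arrays the AT genes thus stood apart from the other CG genes, with a sign that cannot be read. Where Dam-Lam with ecdysone was hybridised directly against Dam-Lam without it (arrays 3463 and 3464), the AT medians were 0.07 and -0.09, and for Dam (arrays 3465 and 3637) 0.07 and -0.11. The signs were thus opposite on the 2 arrays of each, whose dyes were exchanged.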

How the data were processed

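The authors deposited log2 ratios (the log base is taken, not stated) of both channels for each of 35 arrays, and per the submitters' processing notes these were made with limma. The sources used here give no version, background correction, normalisation or genome build, no spot intensities were used, and measurement error was judged from the spread between arrays alone. Per the labels' protocols, RNA was extracted with TRIzol and amplified with a T7 system. In most groups arrays of exchanged dyes correlated positively, so values were used unchanged.

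Here the median of each array was subtracted, gene names were taken from the platform's probe table, and rows of a gene were averaged, AT rows apart from others. Linear models with a gene-wise dye term were fitted in R 4.3.3 (limma 3.58.1, functions lmFit and eBayes), two-sided, with Benjamini-Hochberg adjustment over all units of a fit (7098 to 8070), and tables were made with Python 3.11.15 and pandas 2.3.3. The Lam and Lam delta CaaX fits had 4 arrays and 2 residual degrees of freedom each, their difference 8 arrays, the TSA model 10 arrays and 4 residual degrees of freedom, and the ecdysone mRNA fit 5 arrays. mRNA levels (2 arrays) and the 10 ecdysone DamID arrays were described without a test. In simulated data with 200 changed genes, a log2 change of 1 was called in 93% of genes for Lam, 100% for Lam delta CaaX, 48% for their difference and 100% for the Dam-Lam change with TSA. A log2 change of 0.5 was called in 9%, 42%, 1% and 82% of genes in these fits. The simulated noise was independent between units, and far fewer units were changed than were called in the data (for Lam 1638 higher and 1206 lower). The adjusted p depends on how many units change, so these shares do not give the sensitivity in the data.

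The members and the lists (hemocyte, testis and ovary genes) were chosen with earlier results of these data known. Genes named are members only, up to 8 per direction (5 for TSA and ecdysone) with the largest absolute log2 among those called and of the same sign on every direct array. To these were added the 6 highest and 6 lowest by mRNA, up to 6 called higher for Lam in the 3 highest classes of mRNA and up to 6 called lower in the 3 lowest, genes with 2 AT rows, and runs of at least 3 neighbours. Not all genes of the TSA changes without subtraction of Dam are given. Release 6 annotation, matched by gene number for 445 of 455 genes (0 symbols changed), served only for names, arms and gene order. A planned description of promoter letters and protein length was not run, since no sequences were used here.

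Alternatives were values without centring, no dye term, complete rows only, rows averaged over all clones or tested singly, arrays scaled to the same spread, calls at an adjusted p under 0.01 or with an absolute log2 of at least 0.5, each array left out, 5 in place of 10 classes of mRNA level, other comparison genes, X and autosomes apart and the no-ecdysone Lam arrays added. Restriction to genes with TSA values, and the alternatives for the Dam-Lam and Dam-Lam delta CaaX changes and the ratios derived in the TSA model, were added after the data had been seen.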

Additional observations from a re-analysis of the deposited data

Results flagged for a closer look

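Among the named AT genes, 9 of 121 sets of 4 or 5 arrays held an array far from the rest, where chance gives about 1 in 20. On the Lam arrays these were array 2945 for CG11698 (-2.32), CG30161 (-0.37), CG32407 (-0.10) and CG3788 (-0.78), array 2955 for CG15450 (1.07), and array 2907 for CG4935 (-0.27) and CG9662 (0.75). On the Lam delta CaaX arrays they were array 2962 for CG43999 (0.91) and array 2968 for CG5623 (-0.56). Array 2945 accounted for 4 of the 9.

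The change with TSA differed between the lamin proteins, each measured on its own arrays, when Dam-Lam minus Dam-Lam delta CaaX was tested in the TSA model, with 169 AT genes lower and 19 higher. Of the genes named for a change of either protein, CG11227 (-1.79), CG11106 (-1.34), CG12446 (-1.09), CG15530 (-0.89), CG11698 (-0.65) and CG11634 (-0.63) were lower with Dam-Lam, and CG11226 (0.61) and CG13771 (0.48) were higher. With arrays scaled to the same spread the counts were 20 lower and 0 higher (95 and 3 of 7098 units).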

How the results depend on the processing

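No paired analysis was possible because the arrays carry single numbers that no 2 groups share. Of the settings that kept all arrays, 285 of 340 values of comparisons stayed near the main value, 54 moved and 1 reversed, the difference of medians for Lam delta CaaX on X alone (0.0607), and the causes were not tested. A count was taken as near if its ratio to the main count stayed within a fixed limit. A difference of medians was taken as near if it changed by less than its SD between arrays. Adding the 3 no-ecdysone arrays of unsettled direction left 0 AT genes called higher and 0 lower for Lam (6 and 4 at an unadjusted p under 0.05 by limma), with a difference of medians of 0.0764. Of 6863 units 0 were then called higher and 0 lower. The counts below are of AT genes, and those of all units changed with the settings too. For Lam an adjusted p under 0.01 left 724 higher and 214 lower of 8070 units, from 1638 and 1206. At an adjusted p under 0.01 the counts of higher and lower were 93 and 6 for Lam, 21 and 15 for Lam delta CaaX, 54 and 13 for the Dam-Lam delta CaaX change minus Dam, 19 and 48 for the Dam change, 92 and 7 for Lam with TSA, and 1 and 3 for Lam delta CaaX derived without TSA. They were 11 higher for the Dam-Lam change minus Dam, 5 higher for Dam-Lam minus Dam-Lam delta CaaX, and, counting lower genes, 10 for Lam minus Lam delta CaaX, 29 for the Dam-Lam delta CaaX change, 4 for Lam derived without TSA and 0 for ecdysone. With an absolute log2 of at least 0.5 they were 15 and 39 for the Dam change, 68 and 25 for the Dam-Lam delta CaaX change and 77 and 5 for Lam with TSA, and 17 and 12 higher for the Dam-Lam change minus Dam and minus Dam-Lam delta CaaX. Without the dye term 39 were lower for Lam delta CaaX, 10 lower for Lam derived without TSA, and 2 higher and 19 lower for Lam delta CaaX derived without TSA. With arrays scaled to the same spread the Dam-Lam change had 41 higher and a difference of medians of -0.18, and its value minus Dam had 0 higher, 0 lower and -0.0491. Minus Dam-Lam delta CaaX it had 0 higher, 20 lower and -0.37. The Dam-Lam delta CaaX change had 26 lower and 0.0799, and its value minus Dam 42 higher and 6 lower. Lam derived without TSA had 7 lower and 0.36, and Lam delta CaaX 0 higher and 17 lower. On X alone the differences were -0.12 and 0.0503 for the Dam-Lam and Dam-Lam delta CaaX changes, -0.51 between them and 0.19 for Lam derived without TSA, and within 5 classes of mRNA level the Dam change differed by -0.079. Leaving out 1 array gave 2 to 217 higher and 0 to 66 lower for Lam, 21 to 74 and 18 to 95 for Lam delta CaaX, 127 to 169 and 17 to 32 for their difference, 47 to 71 and 132 to 162 for the Dam-Lam change, 71 to 124 and 24 to 50 for the Dam-Lam delta CaaX change, 2 to 22 and 101 to 184 between them, 17 to 47 and 44 to 84 for the Dam change, 8 to 35 and 53 to 103 for Dam-Lam minus Dam, 40 to 109 and 8 to 23 for Dam-Lam delta CaaX minus Dam, 31 to 163 and 3 to 19 for Lam with TSA, 114 to 154 and 5 to 21 for Lam and 0 to 16 and 0 to 65 for Lam delta CaaX derived without TSA, and 0 to 5 and 0 to 9 for ecdysone. The differences of medians then ran from 0.29 to 0.34 for Lam, -0.0488 to -0.0059 for Lam delta CaaX, 0.32 to 0.37 for their difference, -0.31 to -0.30 for the Dam-Lam change, 0.0789 to 0.16 for the Dam-Lam delta CaaX change, -0.60 to -0.52 between them, -0.12 to -0.0579 for the Dam change, -0.17 to -0.16 and 0.22 to 0.29 relative to Dam, 0.25 to 0.29 for Lam with TSA, 0.44 to 0.50 and -0.30 to -0.23 for both ratios derived without TSA, 0.02 to 0.11 for ecdysone and -1.13 to -0.81 for mRNA. Of the named genes, 384 of 410 values under settings with all arrays, and 723 of 763 with 1 array left out, stayed called, and none reversed. Named genes had been chosen as called and of the same sign on every array that measured the contrast directly. That none reversed was therefore largely fixed by this choice and is no test of it.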
